A study of Mus musculus with 24 samples.

Results

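The livers of mice fed 3 plant oil diets were set, as a group, against those of mice fed chow. The effect described is the mean of the 3 oil effects, with each oil weighted equally, and it was estimated in 1 fit of all 4 diets. All 23 libraries of the count table entered: 17 from oil-fed mice (6 cottonseed oil, CSO; 6 olive oil, OO; 5 safflower oil, SFO) and 6 from chow-fed mice, of 24 samples that the labels name. The 24th, SFO 4, was dropped by the submitters as an extreme outlier with possible contamination and is not analysed here. All mice were wild-type (WT) C57BL/6 males, a common inbred laboratory strain, on their diet for 6 weeks; the labels used here state neither their age nor the make-up of the diets. The study's own question concerned cottonseed oil against other high-fat diets. The comparison here asks what the oil diets had in common against chow. The labels call the samples of a diet separate without saying that each is another mouse, so the p-values reflect sample-to-sample spread that could be technical.

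Several liver programmes are known to answer to dietary fat. Hepatocytes make polyunsaturated fatty acids with the desaturases Fads1 and Fads2 and the elongases Elovl2 and Elovl5, and the factor SREBP-1c (from Srebf1) controls these genes together with fatty acid synthesis, while SREBP-2 controls the sterol pathway. Another programme clears foreign compounds: the receptors CAR (Nr1i3) and PXR (Nr1i2) bind drugs and plant compounds and switch on cytochromes P450 of the Cyp2b, Cyp2c and Cyp3a families, carboxylesterases, glucuronosyltransferases and glutathione transferases. NRF2 (from Nfe2l2) governs an overlapping set of glutathione and detoxification enzymes.

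Levels are given as CPM, depth-scaled counts with TMM composition factors applied, from 3′ tag sequencing (QuantSeq), which counts transcripts by tags at their 3′ end. The summed levels of marker lists and the Acta1 limit of 100 CPM are scaled by library totals alone. Library totals ran from 5428649 to 14930305 counts. With all libraries thinned at random to an equal depth, 10280 to 11571 genes were detected in OO. The ranges were 11861 to 12089 in chow, 11370 to 12540 in CSO and 11328 to 12084 in SFO. Fold changes are log2 differences ± SE, oil diets minus chow, from edgeR's quasi-likelihood fit of 11971 tested genes. P-values are from its F test, with Benjamini-Hochberg adjustment. The SE was derived as the absolute fold change over the square root of F, and it is rough where a diet is at or near 0 counts. A gene is said to have risen or fallen where the adjusted p was under 0.05. By that rule 134 genes changed, 1.12% of those tested: 54 rose (0.451%) and 80 fell (0.668%). At an unadjusted p under 0.05 there were 1048. A separate test asked whether the 3 oils differed among themselves, without use of chow, and 281 genes did (2.35%). Of the 134 changed genes, 29 were also among those 281 (21.6% of the changed genes, 10.3% of the differing ones). The strictest description used no test: in 10 genes all 17 oil libraries lay above all 6 chow libraries, and in 10 all lay below, 0.0835% of the tested genes each way. With libraries scaled by totals alone, which shifted the median of all genes by -0.0841, the changed genes were split 37 higher and 116 lower. Without chow 4 the fit called 69 genes (33 higher, 36 lower), without chow 3 it called 86 (48 lower), and without CSO 1 the oils differed in 163.

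The tissue was liver: the 12 hepatocyte markers summed to 151893 to 179812 CPM in the chow libraries. Skeletal muscle transcripts were also present, and unevenly. The 32 muscle markers together reached 1420 to 6312 CPM in chow 3, chow 4 and chow 5 and 2966 CPM in CSO 1, against 24.9 to 279.6 CPM in the other 19 libraries. Acta1, the actin of skeletal muscle, was over 100 CPM in those 4 libraries alone. Chow and oil libraries thus differ in muscle RNA, and 20 of the 28 tested muscle markers are among the 80 genes that fell (0.668% of all tested genes fell), with a median of -4.88 over the list. Myot, a protein of the muscle Z-disc, lay at 0.156 to 54.4 CPM in chow (median 7.21) and 0 to 18.5 CPM in the oil libraries (median 0), and Casq1, the calcium store protein of fast muscle, at 0.375 to 29.1 CPM in chow (median 3.91) and 0 to 5.56 CPM in the oil libraries (median 0). The chow and oil ranges overlapped for both. Myot changed by -6.30 ± 1.02, adjusted p = 0.000138, and Casq1 by -5.74 ± 1.07, adjusted p = 0.000915. In 39 of the 80 genes that fell (48.8%), chow 3, chow 4 and chow 5 all lay above the other 3 chow libraries, as they did for 5.61% of all tested genes. Without the 4 muscle-rich libraries 29 genes changed (12 higher, 17 lower), 28 of them among the 134. Of 116 that could be tested again, 115 kept their direction, and so did all 54 that rose. The 134 were picked in a fit that already held the other 19 libraries, so a kept direction is not independent support. The 4 libraries were set apart by Acta1, itself a muscle marker. In the fit without them 0 of the 21 muscle markers that could be tested passed, with a median of -1.83. With muscle transcripts as a covariate Myot and Casq1 did not pass (adjusted p of 0.443 and 0.933). With all libraries limma voom with sample quality weights called 3 of the 28 muscle markers. The part of muscle RNA in other results was not tested beyond these fits, and for the main groups below the count without these libraries is given.

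**Figure D1:**
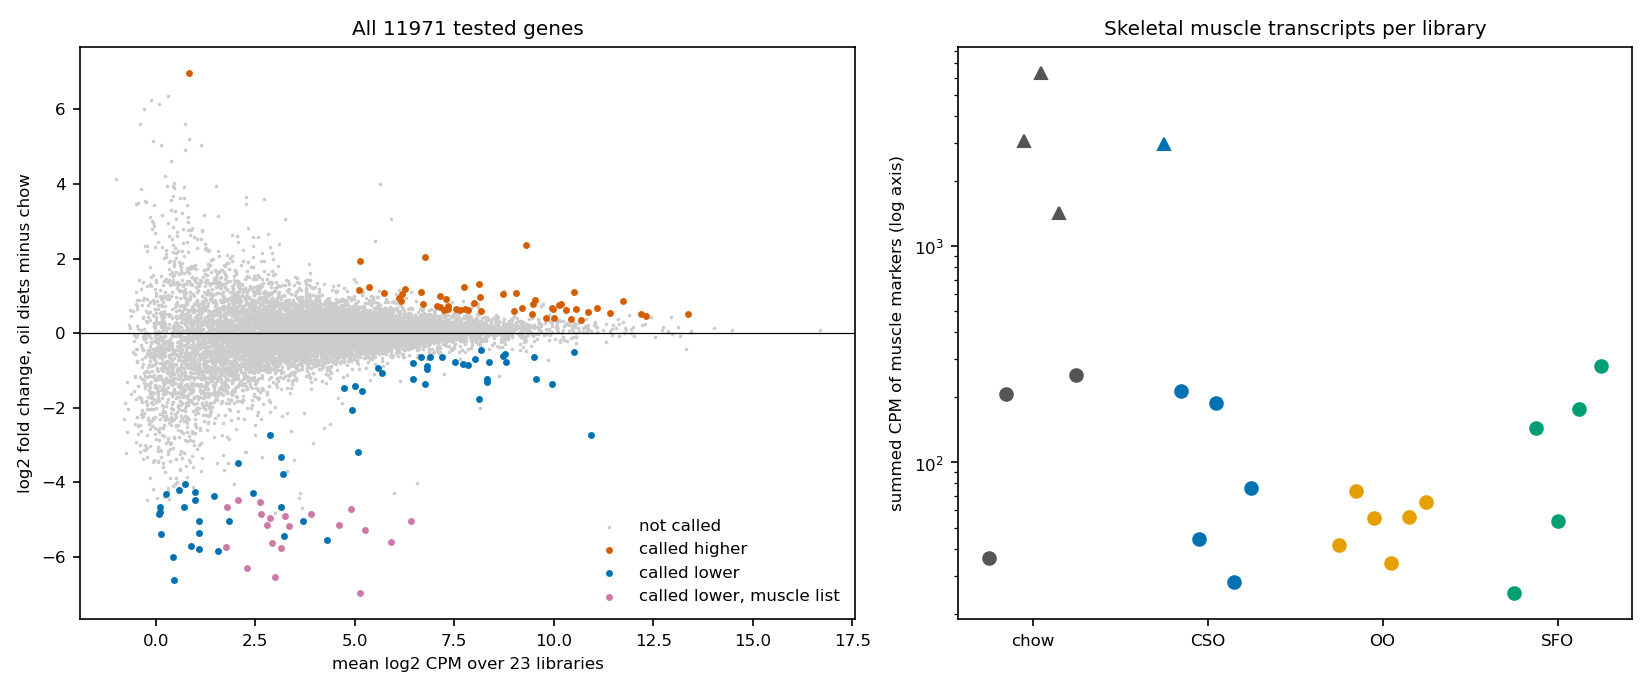
Left: log2 fold change of the oil diets minus chow against mean log2 CPM, 1 point per tested gene, coloured by the call. Of the 44 genes that fell by more than 4 on the log2 scale, 20 are muscle markers. Right: summed CPM of 32 skeletal muscle markers in each library, by diet, on a log axis; triangles mark chow 3, chow 4, chow 5 and CSO 1.

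Several enzymes that clear foreign compounds fell. Of 27 tested genes of the CAR and PXR list, 9 fell and 0 rose, against 0.668% of all genes that fell, and the list's median was -0.51 where that of all genes was 0.01. Without the 4 muscle-rich libraries 4 of the 27 fell and the median was -0.63. With libraries scaled by totals alone 11 fell. Cyp3a11, the main drug-metabolising cytochrome P450 of mouse liver, lay at 4194 to 6224 CPM in chow (median 5056) and 243 to 1275 CPM in the oil libraries (median 782). The groups did not overlap: the highest oil library was far below the lowest chow library. Cyp3a11 fell by 2.75 on the log2 scale (± 0.20, adjusted p = 3.77e-08), and the value was -2.77 in CSO, -2.60 in OO and -2.87 in SFO; the test of a difference between oils gave an adjusted p of 0.859. Its relative Cyp3a44 lay at 16.4 to 39.4 CPM in chow (median 28.8) and 0 to 5.68 CPM in the oil libraries (median 1.95), again without overlap, and changed by -3.77 ± 0.56, adjusted p = 2.04e-05. The relatives Cyp3a25 (-0.77 ± 0.13, adjusted p = 0.000141) and Cyp3a59 (-1.47 ± 0.37, adjusted p = 0.0248) fell with overlapping ranges. For Cyp3a25 the oils differed in degree (-0.99 in CSO, -0.40 in OO and -0.92 in SFO, adjusted p = 0.0449). These P450 genes share much sequence, so their separate counts are uncertain.

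Cyp2c29, a P450 that acts on drugs and fatty acids, lay at 1115 to 1454 CPM in chow (median 1263) and 290.2 to 972 CPM in the oil libraries (median 551), without overlap. It fell by 1.22 (± 0.12, adjusted p = 1.83e-10) and the oils differed in degree, with -1.32 in CSO, -0.72 in OO and -1.63 in SFO (adjusted p = 0.000804). Cyp2b10, the classical target of CAR, was low in every library, at 1.66 to 8.89 CPM in chow and 0 to 1.26 CPM in the oil libraries, which did not overlap; it was singled out after its values were seen. Its fitted change was -6.01 ± 1.16, adjusted p = 0.0017. Since every SFO library is at 0, the size depends on the prior count of the fit itself, not on that of the log2 CPM. Ces2a, a carboxylesterase of the same programme, lay at 537 to 595 CPM in chow (median 576) and 161 to 307 CPM in the oil libraries (median 223). All oil libraries were below all chow libraries, with -1.31 ± 0.11, adjusted p = 3.94e-12, and the oils did not differ detectably (-1.29 in CSO, -1.21 in OO and -1.44 in SFO, adjusted p = 0.678). The glucuronosyltransferase Ugt2b35 (-0.63 ± 0.15, adjusted p = 0.0154) and the efflux pump Abcc3 (-0.85 ± 0.19, adjusted p = 0.0134) fell too. For Abcc3 the oils differed (-0.32 in CSO, -0.72 in OO and -1.51 in SFO, adjusted p = 0.0246). The receptors themselves were not called: Nr1i3 was at 0.21 ± 0.42, adjusted p = 0.985 and Nr1i2 at -0.24 ± 0.20, adjusted p = 0.879.

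Glutathione transferases conjugate foreign compounds to glutathione. Among 19 tested glutathione transferases 5 fell and 0 rose, against 0.668% of all genes that fell, with a median of -0.50; without the muscle-rich libraries 1 fell and the median was -0.44. Gstm1 lay at 1644 to 1991 CPM in chow (median 1737) and 511 to 983 CPM in the oil libraries (median 743). No library of one group reached the other, and the change was -1.36 ± 0.089, adjusted p = 9.13e-16. Its size still differed between oils (-1.40 in CSO, -1.09 in OO and -1.60 in SFO, adjusted p = 0.0288). Gstm3 lay at 33.8 to 110.2 CPM in chow (median 73.6) and 2.78 to 41.6 CPM in the oil libraries (median 10.8), with overlap. It changed by -2.06 ± 0.37, adjusted p = 0.00064, and by -1.83 (adjusted p = 0.145) without the 4 muscle-rich libraries. Gsta2 lay at 14.7 to 35.2 CPM in chow (median 22.1) and 0 to 31.2 CPM in the oil libraries (median 1.17); its change was -1.32 in CSO, -5.06 in OO and -3.61 in SFO, and the oils differed (adjusted p = 0.0193). Pooled, Gsta2 changed by -3.33 ± 0.59, adjusted p = 0.000478, and it was at -2.95 (adjusted p = 0.224) without those 4 libraries. The members of each transferase family are near-identical in places and their counts may be split between them.

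In the NRF2 list, 4 of 19 tested genes fell and 0 rose, against 0.668% of all genes that fell, with a median of -0.29. Per oil the list's median was -0.48 in CSO, 0.005 in OO and -0.44 in SFO, all against the same chow libraries. Without the muscle-rich libraries 2 of 20 tested genes fell and the median was -0.19. Ephx1, the microsomal epoxide hydrolase, lay at 443 to 645 CPM in chow (median 554) and 142 to 367 CPM in the oil libraries (median 230.4). Its groups did not overlap and it changed by -1.24 ± 0.13, adjusted p = 3.77e-09, with -0.96 in CSO, -1.25 in OO and -1.52 in SFO (adjusted p of the difference = 0.148). Ugdh, which makes UDP-glucuronic acid for glucuronidation, changed by -0.83 ± 0.15, adjusted p = 0.000393, and Gsr, glutathione reductase, by -0.63 ± 0.15, adjusted p = 0.0239. Gclc, the catalytic subunit of the first step of glutathione synthesis, passed the test on the mean of the oils (-0.63 ± 0.12, adjusted p = 0.000771), but not as a change common to them. It lay at 423 to 602 CPM in chow (median 565) and 213 to 707 CPM in the oil libraries (median 299), and per oil at -0.95 in CSO, 0.10 in OO and -1.02 in SFO; the oils differed with an adjusted p of 1.37e-06. The OO libraries, at 417 to 707 CPM, spanned the chow range, whereas every CSO and SFO library was below every chow library. Without the OO libraries the mean was -0.98, and without the SFO libraries it was -0.43 and not called (adjusted p = 0.0856). Gclc also missed the threshold without the CSO libraries (-0.47, adjusted p = 0.0634), with the 17 oil libraries as 1 group (-0.51, adjusted p = 0.658) and without the 4 muscle-rich libraries (-0.65, adjusted p = 0.0641). Nqo1, a standard NRF2 target, was at -1.67 ± 0.68, adjusted p = 0.354.

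**Figure D2:**
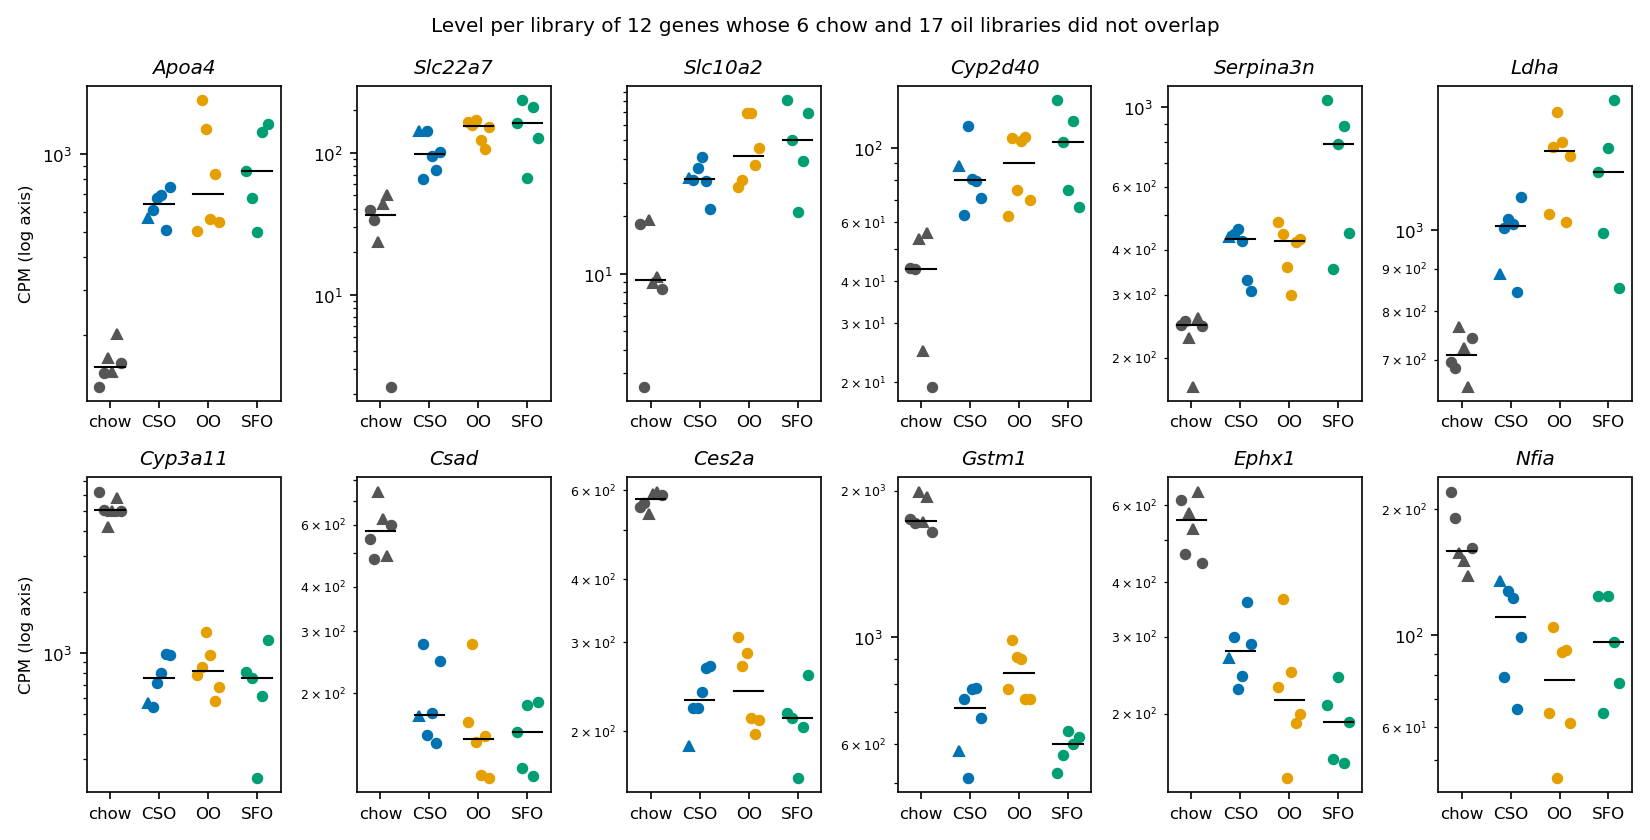
Level of 12 genes in each library (CPM, log axis), by diet, with the median of each diet as a bar; triangles mark the 4 muscle-rich libraries. In the upper row all 17 oil libraries lie above the 6 chow libraries and in the lower row all lie below, for example Cyp3a11 with a highest oil library of 1275 CPM under a lowest chow library of 4194 CPM.

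Sulfur amino acid genes moved in separate directions. Of 21 tested genes of methionine, cysteine and taurine metabolism 1 rose and 2 fell, against 0.451% of all genes that rose and 0.668% that fell. The list's median was 0.15. Csad, the decarboxylase on the route from cysteine to taurine, had the second smallest adjusted p of the comparison and lay at 481 to 742 CPM in chow (median 574) and 115 to 276 CPM in the oil libraries (median 156). No oil library reached the chow range. Csad changed by -1.78 ± 0.14, adjusted p = 7.05e-13, with -1.57 in CSO, -1.84 in OO and -1.91 in SFO (adjusted p of the difference = 0.537), and by -1.67 without the 4 muscle-rich libraries. Cdo1, the dioxygenase that supplies its substrate, was at 0.15 ± 0.10, adjusted p = 0.777. Mat1a, which makes S-adenosylmethionine in hepatocytes, lay at 1728 to 2601 CPM in chow (median 1943) and 2366 to 4093 CPM in the oil libraries (median 2999.6). It rose by 0.54 ± 0.093, adjusted p = 0.000276, and was at 0.51 (adjusted p = 0.112) without those libraries.

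Genes for long polyunsaturated fatty acids rose. Of the 6 tested desaturase and elongase genes 4 rose and 0 fell, against 0.451% of all genes that rose, and the list's median was 0.68. Without the muscle-rich libraries 3 rose and the median was 0.76. Fads2, the delta-6 desaturase, lay at 519 to 1103 CPM in chow (median 729) and 974 to 2535 CPM in the oil libraries (median 1491). SFO 5, at 974.4 CPM, was the 1 oil library within the chow range, and the median of the oil libraries was above the highest chow library. Fads2 rose by 1.10 ± 0.13, adjusted p = 1.16e-06, in the order 1.46 in CSO, 1.04 in OO and 0.79 in SFO, and the oils differed (adjusted p = 0.0339). Fads1, the delta-5 desaturase, rose by 0.77 ± 0.12, adjusted p = 2.29e-05 (0.87 in CSO, 0.94 in OO and 0.51 in SFO; adjusted p of the difference = 0.148). Its libraries lay at 586 to 993 CPM in chow (median 690.5) and 938 to 1784 CPM in the oil libraries (median 1291). The elongases Elovl5 (0.75 ± 0.12, adjusted p = 4.75e-05) and Elovl2 (0.61 ± 0.11, adjusted p = 0.00064) rose with them; for Elovl5 the oils differed (0.48 in CSO, 1.06 in OO and 0.70 in SFO, adjusted p = 0.0274).

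Of 18 tested genes of fatty acid synthesis 1 rose and 0 fell, against 0.451% of all genes that rose. The list had a median of 0.45 and 13 positive values, and 0 passed without the muscle-rich libraries. The gene called was Srebf1, which lay at 93.7 to 193 CPM in chow (median 169) and 110.5 to 555 CPM in the oil libraries (median 312) and rose by 0.96 ± 0.20, adjusted p = 0.00624, with 0.93 in CSO, 1.37 in OO and 0.58 in SFO (adjusted p of the difference = 0.132). Without the muscle-rich libraries its change was 1.01 and its adjusted p 0.184. Fasn, fatty acid synthase, was at 0.72 ± 0.24, adjusted p = 0.208, and Acly, which supplies cytosolic acetyl-CoA, at 0.42 ± 0.17, adjusted p = 0.328; neither passed. Scd1, the desaturase that makes oleate, averaged -0.078 ± 0.21, adjusted p = 0.993 over oils that pointed apart (-0.24 in CSO, 0.65 in OO and -0.65 in SFO, adjusted p = 0.0237).

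**Figure D3:**
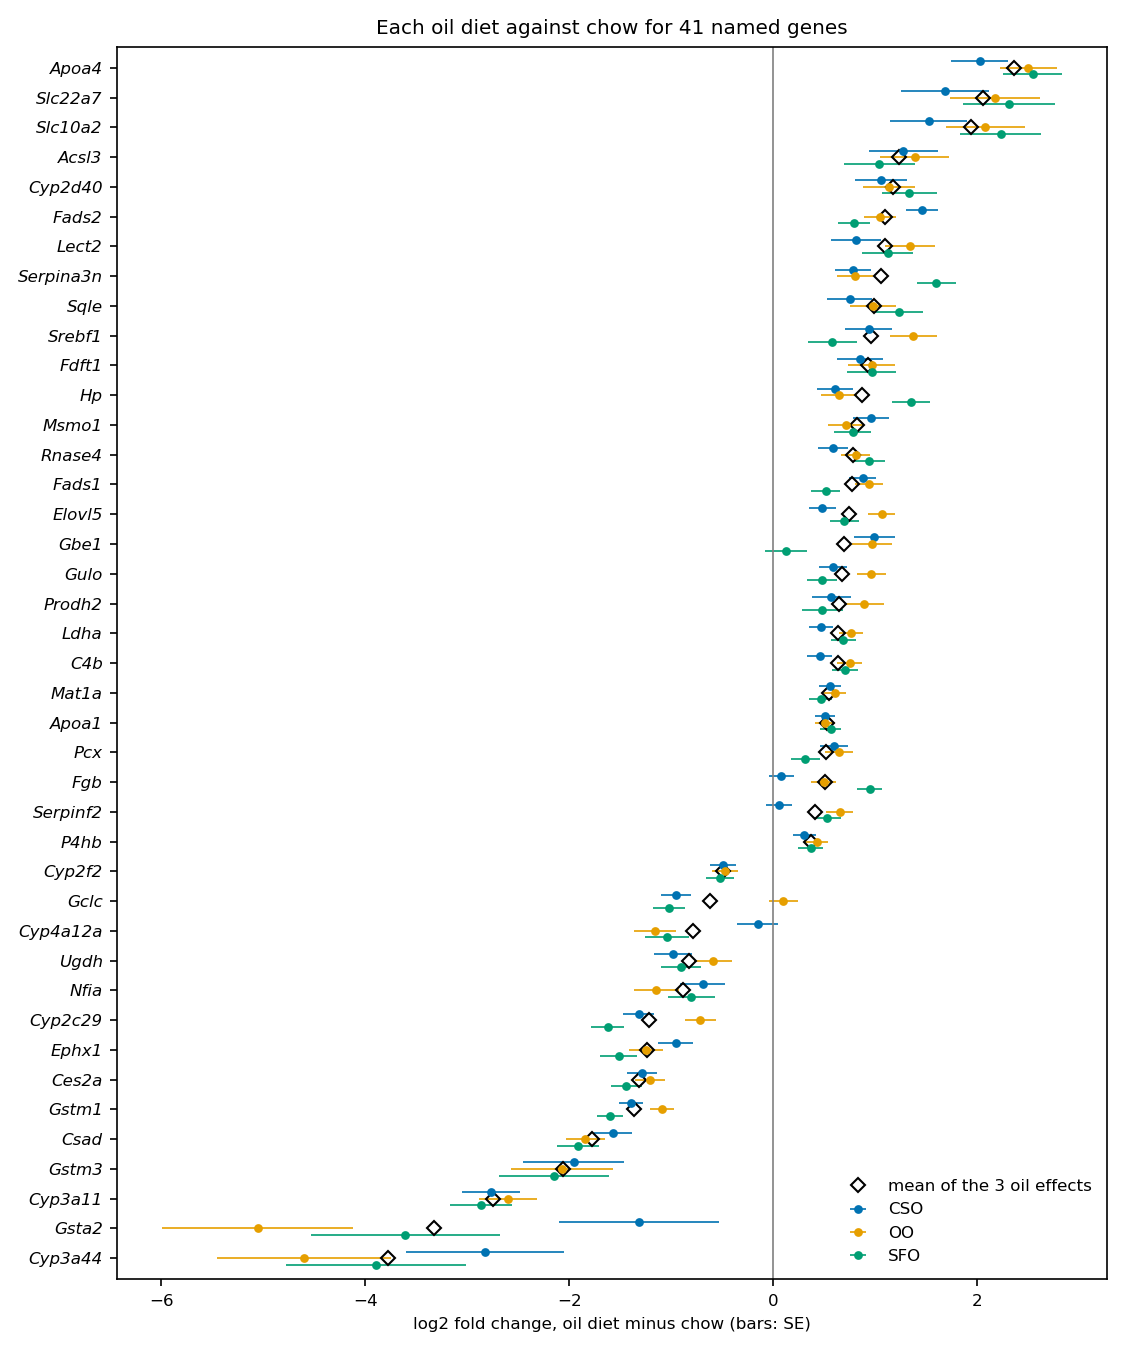
Log2 fold change of each oil diet minus chow with its SE (coloured points and bars) and the mean of the 3 oil effects (open diamonds), for 41 named genes. For Cyp3a11, Ces2a, Csad, Apoa1 and Msmo1 the 3 oils lie close to the diamond; for Gclc the OO point lies at 0.10 while those of CSO and SFO lie at -0.95 and -1.02. The 3 oil effects share the same chow libraries.

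Several genes of the sterol pathway rose. Of 25 tested genes of cholesterol synthesis and uptake 7 rose and 0 fell, against 0.451% of all genes that rose, with a median of 0.48 and 24 positive values. Without the muscle-rich libraries none of the 25 passed, while the median was 0.52, and with libraries scaled by totals alone 6 rose. Sqle, squalene epoxidase, lay at 54.2 to 95.0 CPM in chow (median 84.2) and 77.9 to 293 CPM in the oil libraries (median 159) and rose by 0.99 ± 0.19, adjusted p = 0.00191. Fdft1, squalene synthase, lay at 76.2 to 115 CPM in chow (median 93.1) and 67.2 to 283 CPM in the oil libraries (median 180.4), and OO 1, below every chow library, was the 1 oil library not above the chow range. It rose by 0.93 ± 0.20, adjusted p = 0.00549. Msmo1, a sterol methyl oxidase, lay at 139.7 to 210.2 CPM in chow (median 156) and 159 to 364 CPM in the oil libraries (median 281) and rose by 0.82 ± 0.15, adjusted p = 0.000749 (0.96 in CSO, 0.71 in OO and 0.78 in SFO, adjusted p of the difference = 0.704). The others that rose were Hmgcs1, which starts the mevalonate pathway (0.89 ± 0.18, adjusted p = 0.00945), Lss, lanosterol synthase (1.04 ± 0.24, adjusted p = 0.0125), Cyp51, the lanosterol demethylase (0.60 ± 0.14, adjusted p = 0.0148), and Dhcr7, the last reductase of the pathway (0.73 ± 0.18, adjusted p = 0.0283).

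Because 7 genes of this list rose, the promoters of 4 of them are shown, as 300-base RefSeq windows (GRCm38.p6, from 250 bases before to 50 after the annotated start). Capitals mark CCAAT, read on both strands, which is the core bound by NF-Y, a partner of SREBP, and, in Hmgcs1 only, also TCACNCCAC, a sterol regulatory element-like word; the 2 motifs do not overlap there.
Hmgcs1: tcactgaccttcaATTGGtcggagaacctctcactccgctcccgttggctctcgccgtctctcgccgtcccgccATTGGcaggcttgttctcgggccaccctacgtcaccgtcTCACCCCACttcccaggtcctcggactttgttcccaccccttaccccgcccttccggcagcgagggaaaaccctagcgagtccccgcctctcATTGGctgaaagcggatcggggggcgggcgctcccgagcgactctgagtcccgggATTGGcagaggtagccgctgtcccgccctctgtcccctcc
Msmo1: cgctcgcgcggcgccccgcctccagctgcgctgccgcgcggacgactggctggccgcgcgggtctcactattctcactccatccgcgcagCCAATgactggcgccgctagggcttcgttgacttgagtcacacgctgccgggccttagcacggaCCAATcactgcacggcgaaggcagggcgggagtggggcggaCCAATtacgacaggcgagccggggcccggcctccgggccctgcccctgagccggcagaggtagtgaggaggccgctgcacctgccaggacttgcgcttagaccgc
Lss: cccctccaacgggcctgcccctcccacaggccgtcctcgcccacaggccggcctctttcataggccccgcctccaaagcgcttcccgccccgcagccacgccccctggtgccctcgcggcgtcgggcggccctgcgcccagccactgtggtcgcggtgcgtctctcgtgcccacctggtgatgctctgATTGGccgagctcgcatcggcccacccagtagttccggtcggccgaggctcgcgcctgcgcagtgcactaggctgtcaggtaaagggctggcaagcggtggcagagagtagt
Cyp51: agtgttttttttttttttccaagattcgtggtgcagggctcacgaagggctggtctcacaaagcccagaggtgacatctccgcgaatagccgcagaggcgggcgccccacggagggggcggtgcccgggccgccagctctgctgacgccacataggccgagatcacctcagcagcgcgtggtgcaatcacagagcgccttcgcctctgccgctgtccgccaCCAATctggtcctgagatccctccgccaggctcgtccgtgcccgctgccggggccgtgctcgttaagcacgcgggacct
The windows lie at chr13:119690101-119690400 (Hmgcs1, plus strand), chr8:64733529-64733828 (Msmo1, minus strand), chr10:76531355-76531654 (Lss, plus strand) and chr5:4104648-4104947 (Cyp51, minus strand). Of the 7 genes that rose, 5 had a window, and all 5 held CCAAT in at least 1. Dhcr7, which is not shown, had more than 1 window, and some of them held no CCAAT. Sqle and Fdft1 had no entry. Over the list, 17 of 18 genes with a window held CCAAT (94.4%), against 41.1% of all symbols and 37.4% of all windows. The word TCACNCCAC was in 1 of the 18 (5.56%), against 1.44% of all symbols and 1.24% of all windows. In the desaturase and elongase list 2 of 5 genes with a window held CCAAT (40%) and 0 held TCACNCCAC. In the NRF2 list 8 of 18 genes with a window (44.4%) held TGACNNNGC, the core of the antioxidant response element, read on both strands, against 14% of all symbols and 12.4% of all windows. A match is a description of the letters only.

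Plasma lipoprotein genes held the largest of the rises without overlap between oil and chow. Apoa4, an apolipoprotein of lipid-rich particles whose liver expression is known to rise with fat, lay at 127 to 202 CPM in chow (median 151) and 498 to 1609 CPM in the oil libraries (median 678). All oil libraries were at least 498 CPM and no chow library was above 202 CPM. Apoa4 rose by 2.35 ± 0.25, adjusted p = 1.23e-05, a ratio of 5.18 in mean CPM, with 2.02 in CSO, 2.50 in OO and 2.54 in SFO and no detectable difference between oils (adjusted p = 0.481). Apoa1, the main protein of HDL, lay at 6765 to 8999.9 CPM in chow (median 7927) and 8664 to 13350.5 CPM in the oil libraries (median 11462) and rose by 0.52 ± 0.084, adjusted p = 8.02e-05 (0.50 in CSO, 0.50 in OO and 0.56 in SFO). These were the 2 that rose of 26 tested lipoprotein genes, against 0.451% of all genes, and both also rose without the muscle-rich libraries. The list's median was 0.17. Acsl3, an acyl-CoA synthetase of lipid droplets, was the 1 of 29 tested lipid droplet and fatty acid handling genes to rise. It lay at 6.90 to 28.6 CPM in chow (median 22.6) and 19.4 to 83.4 CPM in the oil libraries (median 45.2) and changed by 1.23 ± 0.29, adjusted p = 0.0177. Its adjusted p was 0.0619 without chow 1 and 0.0957 without chow 4, and without the muscle-rich libraries it was at 1.07 (adjusted p = 0.6254).

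A pair of transporters were among the genes without overlap. Slc22a7, the organic anion transporter OAT2, lay at 2.25 to 50.1 CPM in chow (median 36.4) and 65.0 to 233 CPM in the oil libraries (median 141), and chow 6 was the lowest, the other chow libraries being at 23.6 to 50.1 CPM. It rose by 2.05 ± 0.39, adjusted p = 0.00729 (1.68 in CSO, 2.17 in OO and 2.31 in SFO), and was at 2.38 (adjusted p = 0.118) without the muscle-rich libraries. Slc10a2, the sodium-dependent bile acid transporter best known from ileum and bile ducts, lay at 2.56 to 19.1 CPM in chow (median 9.28) and 21.1 to 81.1 CPM in the oil libraries (median 37.1) and rose by 1.94 ± 0.34, adjusted p = 0.000478 (1.52 in CSO, 2.08 in OO and 2.23 in SFO), also without those libraries (2.15, adjusted p = 0.0410). The 7 tested cholangiocyte markers had 0 calls and a median of 0.19, and the 9 measured ones summed to 358.0 to 562.2 CPM in chow and 358.2 to 816.9 CPM in the oil libraries. Genes of bile acid synthesis and transport gave 0 calls of 18 by edgeR (3 at an unadjusted p under 0.05, 0 by DESeq2 and 1 by limma voom), with a median of 0.10; Cyp7a1, the rate-limiting enzyme, was at -0.39 ± 0.38, adjusted p = 0.917. In bulk tissue, fewer or more cells of a type and less or more RNA per cell cannot be told apart.

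Other genes without overlap between oil and chow had varied roles. Cyp2d40, a cytochrome P450, lay at 19.4 to 55.6 CPM in chow (median 43.6) and 62.5 to 139 CPM in the oil libraries (median 80.9). It rose by 1.17 ± 0.22, adjusted p = 0.00127, and the oils gave 1.05 in CSO, 1.13 in OO and 1.33 in SFO. Rnase4, a secreted ribonuclease, lay at 394 to 560.1 CPM in chow (median 460.2) and 587 to 1219 CPM in the oil libraries (median 783) and rose by 0.78 ± 0.12, adjusted p = 8.02e-05. Gulo, the last enzyme of vitamin C synthesis in rodents, lay at 349.5 to 439 CPM in chow (median 402) and 475 to 1040.2 CPM in the oil libraries (median 642) and rose by 0.67 ± 0.12, adjusted p = 0.000393. Ldha, lactate dehydrogenase A, lay at 649.7 to 766 CPM in chow (median 709) and 844 to 1432 CPM in the oil libraries (median 1046) and rose by 0.64 ± 0.10, adjusted p = 6.17e-05. Nfia, a transcription factor of the nuclear factor I family, lay at 138 to 220.0 CPM in chow (median 159) and 45.3 to 135 CPM in the oil libraries (median 91.7), changed by -0.88 ± 0.17, adjusted p = 0.0017, and gave -0.69 in CSO, -1.15 in OO and -0.81 in SFO. Each of Cyp2d40, Rnase4, Ldha and Nfia passed the test without the muscle-rich libraries, and Gulo, at 0.73, missed it (adjusted p = 0.0515).

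Acute-phase genes, secreted by hepatocytes in inflammation, were called in part, and many differed between oils. Of 28 tested genes 9 rose and 0 fell, against 0.451% of all genes that rose, with a median of 0.47, and 12 of the 28 differed between oils, against 2.35% of all genes. The list's median was 0.09 in CSO, 0.42 in OO and 0.94 in SFO, all against the same chow libraries. Serpina3n, a protease inhibitor, lay at 166 to 258 CPM in chow (median 246) and 299.7 to 1047 CPM in the oil libraries (median 435) without overlap and rose by 1.06 ± 0.16, adjusted p = 2.73e-05; it was highest in SFO (0.78 in CSO, 0.80 in OO and 1.60 in SFO, adjusted p of the difference = 0.00728). Hp, haptoglobin, lay at 1982 to 2406 CPM in chow (median 2076) and 2263 to 7981 CPM in the oil libraries (median 3383) and rose by 0.86 ± 0.15, adjusted p = 0.00242 (0.60 in CSO, 0.65 in OO and 1.35 in SFO; adjusted p of the difference = 0.0334). Fgb, a fibrinogen chain, rose by 0.51 ± 0.10, adjusted p = 0.00259 in the mean, with 0.079 in CSO, 0.49 in OO and 0.94 in SFO, and the oils differed (adjusted p = 7.35e-05). The CSO libraries of Fgb, at 3085 to 4750.2 CPM, overlapped the chow range of 3023 to 4238 CPM. Without the SFO libraries the mean was 0.28 and Fgb was not called (adjusted p = 0.134). Without the muscle-rich libraries 1 of the 28, Serpina3n, passed. With libraries scaled by totals alone 5 rose. Saa1, the serum amyloid A that responds most in acute inflammation, was at 3.07 ± 0.81, adjusted p = 0.0808 and not called, with 1.46 in CSO, 1.99 in OO and 5.76 in SFO.

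Complement and coagulation genes gave 2 rises and 0 falls of 35 tested, against 0.451% of all genes that rose, with a median of 0.15. C4b, a complement component, lay at 927 to 1179 CPM in chow (median 1100.0) and 1250.4 to 2399.8 CPM in the oil libraries (median 1585), without overlap, and rose by 0.64 ± 0.11, adjusted p = 0.000141 (0.46 in CSO, 0.75 in OO and 0.70 in SFO). Serpinf2, the plasmin inhibitor, rose by 0.41 ± 0.11, adjusted p = 0.0444 in the mean, although CSO was at 0.055 against 0.65 in OO and 0.53 in SFO (adjusted p of the difference = 0.0147). Serpinf2 lost its call in 13 of the 23 fits that each left out 1 library, 5 of them without a chow library, at adjusted p-values of up to 0.179. C4b was at 0.56 (adjusted p = 0.114) and Serpinf2 at 0.31 (adjusted p = 0.99989) without the muscle-rich libraries. Of 23 tested genes of protein folding in the endoplasmic reticulum 1 rose, P4hb, protein disulfide isomerase (0.36 ± 0.10, adjusted p = 0.041), and the list's median was 0.36. P4hb lost its call in 11 of 23 fits that each left out 1 library (chow 1, 2, 4, 5 or 6, CSO 4, 5 or 6, OO 1, SFO 1 or 6), with adjusted p-values of 0.0503 to 0.164. It was at 0.42 (adjusted p = 0.389) without the muscle-rich libraries, where 0 of the 23 passed, with a median of 0.38. Interferon response genes gave 0 calls of 27 by edgeR with a median of 0.44; 8 had an unadjusted p under 0.05, and DESeq2 and limma voom called 1 each.

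In carbohydrate and amino acid metabolism the calls were few. Of 28 tested glucose genes 3 rose, against 0.451% of all genes: Ldha, Pcx and Gbe1. Pcx, pyruvate carboxylase, lay at 461 to 571 CPM in chow (median 522) and 522 to 1224 CPM in the oil libraries (median 736) and rose by 0.52 ± 0.12, adjusted p = 0.00893. Gbe1, the glycogen branching enzyme, rose by 0.69 ± 0.17, adjusted p = 0.023 in the mean, but SFO was at 0.13 against 0.99 in CSO and 0.97 in OO (adjusted p of the difference = 0.0242). Gbe1 lost its call without chow 2, chow 4 or chow 5 (adjusted p of 0.0657 to 0.129), and Pcx without chow 4 (0.0547). Without the muscle-rich libraries 1 of the 28, Ldha, passed, while Pcx was at 0.53 (adjusted p = 0.348) and Gbe1 at 0.70 (adjusted p = 0.512). Pck1 (-0.09 ± 0.16, adjusted p = 0.983) and G6pc (-0.36 ± 0.37, adjusted p = 0.923), the gluconeogenic enzymes, were not called. Prodh2, a hydroxyproline dehydrogenase, was the 1 of 34 tested amino acid genes to rise (0.65 ± 0.16, adjusted p = 0.031), and it lost its call in turn without chow 1, 2, 3, 4 or 6 (adjusted p of 0.0547 to 0.142). It was at 0.77 (adjusted p = 0.254) without the muscle-rich libraries, where 0 of the 34 passed.

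Genes that mark position along the liver lobule gave few calls. Of 20 pericentral genes 2 rose (Lect2 and Gulo) and 1 fell (Csad), against 0.451% of all genes that rose and 0.668% that fell. Their median of 0.08 turned to -0.01 with libraries scaled by totals alone. Lect2, a secreted chemotactic factor, lay at 39.7 to 69.2 CPM in chow (median 54.0) and 49.8 to 198 CPM in the oil libraries (median 111) and rose by 1.09 ± 0.21, adjusted p = 0.0017. Of 20 periportal genes 1 rose (Apoa4) and 1 fell (Cyp2f2), with a median of -0.02. Cyp2f2, a P450 of periportal hepatocytes, lay at 1469 to 2440.3 CPM in chow (median 1748) and 1026 to 1797 CPM in the oil libraries (median 1270.2) and changed by -0.50 ± 0.10, adjusted p = 0.00402 (-0.49 in CSO, -0.47 in OO and -0.52 in SFO); without chow 1 its adjusted p was 0.0549. Cyp4a12a, a male-specific omega-hydroxylase, was the 1 call among 23 growth hormone dependent genes and among 21 peroxisomal and omega oxidation genes (-0.79 ± 0.16, adjusted p = 0.00428). It was a mean over unlike oils, at -0.15 in CSO, -1.16 in OO and -1.04 in SFO (adjusted p of the difference = 0.0038). Of the 21 oxidation genes 11 differed between oils, against 2.35% of all genes.

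**Figure D4:**
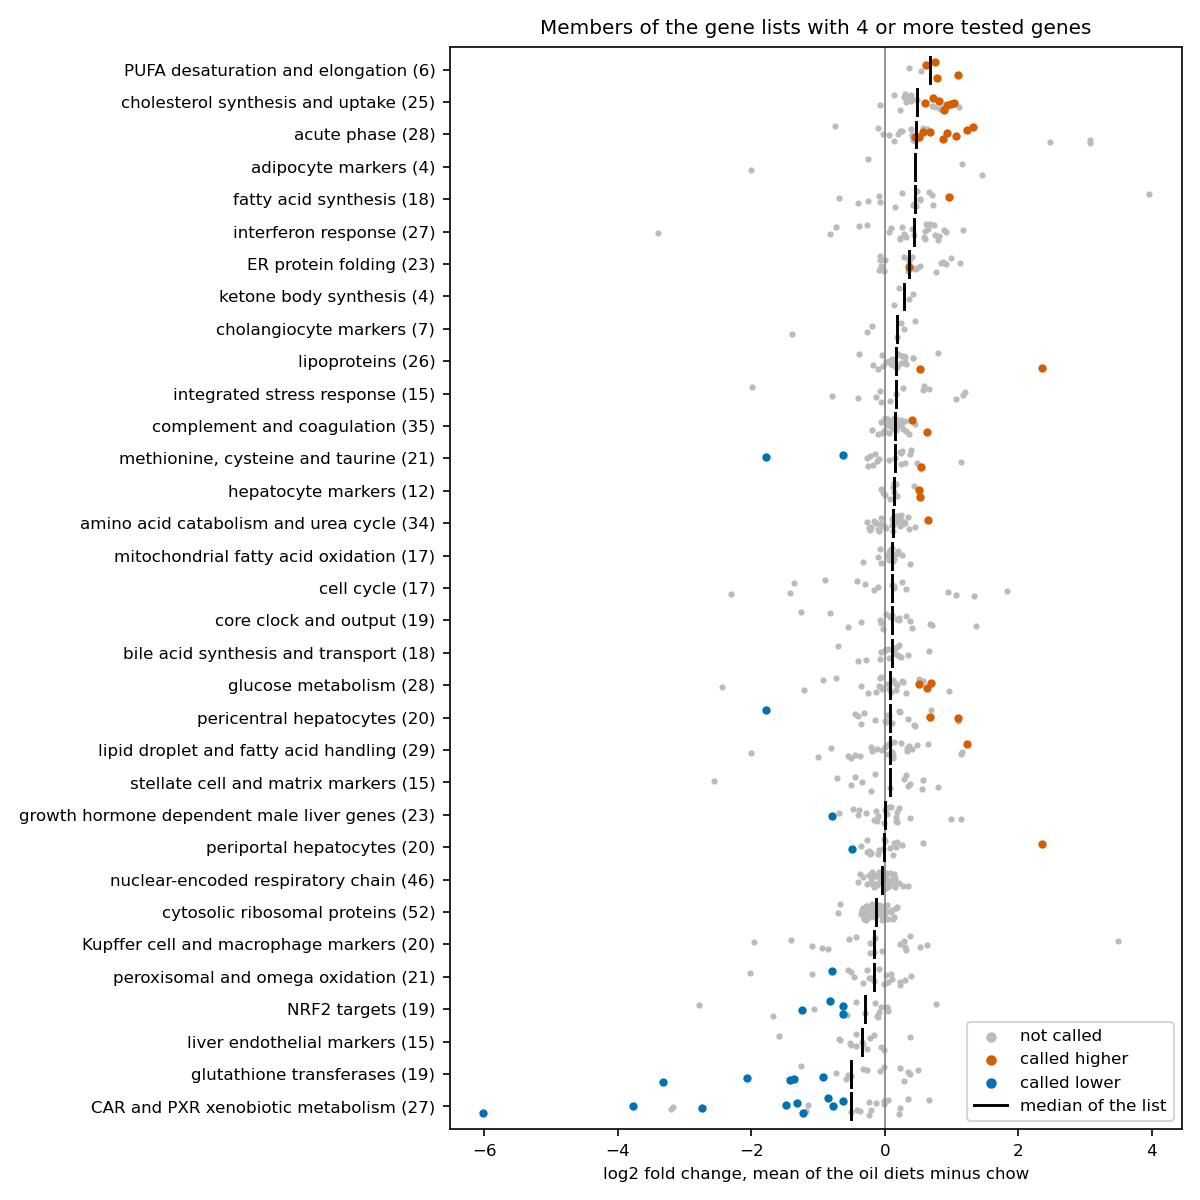
Log2 fold change of the oil diets minus chow for each tested member of the gene lists (1 point per gene; the number of tested members is in brackets), with the list's median as a black bar and called genes in colour. The lists of desaturases and elongases (median 0.68) and of cholesterol genes (0.48) lie at the top and the CAR and PXR list (-0.51) at the bottom. Lists with fewer than 4 tested genes are not drawn, and the skeletal muscle list (-4.88) is left out for scale.

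Several processes that fat diets are often examined for showed no call in the mean of the oils. Mitochondrial fatty acid oxidation gave 0 of 17 (median 0.11), with Cpt1a, the carnitine transferase that admits fatty acids, at 0.38 ± 0.11, adjusted p = 0.0864. Ketone body synthesis gave 0 of 4 (median 0.28), the integrated stress response 0 of 15 (0.17), the clock and its outputs 0 of 19 (0.10), nuclear-encoded respiratory chain subunits 0 of 46 (-0.04), cytosolic ribosomal proteins 0 of 52 (-0.14) and cell cycle genes 0 of 17 (0.10). At an unadjusted p under 0.05 these 7 lists had, in that order, 2, 3, 1, 2, 0, 0 and 3 genes. DESeq2 called 1 gene in them, a clock gene, and limma voom 2, 1 of fatty acid oxidation and 1 of the clock list. A missed threshold does not show that the levels were equal. Cyp4a14, an omega-hydroxylase induced through PPARα, was at -2.01 ± 0.50, adjusted p = 0.0548 in the mean over oils that went different ways (0.69 in CSO, -2.30 in OO and -4.43 in SFO, adjusted p = 0.00188).

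Markers of other liver cells gave 0 calls: 0 of 20 Kupffer cell and macrophage markers, 0 of 15 endothelial, 0 of 15 stellate cell and matrix, 0 of 7 cholangiocyte, 0 of 2 lymphocyte, 0 of 1 neutrophil, 0 of 1 erythroid, 0 of 4 adipocyte and 0 of 1 exocrine pancreas markers. At an unadjusted p under 0.05 edgeR had 1 macrophage, 1 endothelial, 1 stellate, 1 cholangiocyte and 3 adipocyte markers, and neither DESeq2 nor limma voom called any marker of these 9 lists. The endothelial list was negative in 14 of 15 genes, with a median of -0.35, and its summed level was 441.3 to 510.9 CPM in chow and 221.7 to 550.6 CPM in the oil libraries, which overlapped. Macrophage markers summed to 250.1 to 517.9 CPM in chow and 175.5 to 476.3 CPM in the oil libraries.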

How the data were processed

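Liver RNA of 23 libraries was measured by 3′ tag sequencing. The authors deposited raw counts per gene. Per the submitters' processing notes the tools were Trimmomatic, STAR 2.7.1a, HTSeq 0.9.1, DESeq2 and DESeq with mm39 (strand use: not given in the sources used here). Deposited tables of single oils against chow were not used here. SFO 4 has no column among the counts used.

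Analysis used edgeR 4.0.16, DESeq2 1.42.0 and limma 3.58.1 (R 4.3.3), and figures used matplotlib 3.10.9 (Python 3.11.15). Of 13686 genes, filterByExpr kept 11971, which hold 99.9% of the counts. With TMM scaling, the 4 diets were fitted together and the contrast was tested by the robust quasi-likelihood method of edgeR (19 residual degrees of freedom; adjusted p is Benjamini-Hochberg, threshold 0.05; log2 CPM used a prior count of 2). The procedure was also run on simulated counts with equal changes in all 3 oil diets and no uneven muscle RNA. That run does not bear on oils that differ or on muscle RNA. No pairing of libraries by replicate number was detected.

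Named were up to 12 genes each way, called, at a mean log2 CPM of 2 or more, with no overlap between the 17 oil and 6 chow libraries (9 rose and 8 fell), ranked by the smallest of their oil effects. Added were up to 3 called members per pathway list and 2 per list of other cells' markers, and some genes that were not called or were singled out for their values. The members and the 38 lists were chosen with earlier results of these data known. Promoter windows come from RefSeq on GRCm38.p6, another build than that of the counts, and serve for sequence only. Counts of genes in multigene families, overlapping genes and antisense genes are uncertain.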

Additional observations from a re-analysis of the deposited data

Results flagged for a closer look

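For 13 of the 43 named genes the 3 oil diets differed from one another (edgeR, 2 degrees of freedom, adjusted p over 11971 genes): Gclc (1.37e-06), Fgb (7.35e-05), Cyp2c29 (0.000804), Cyp4a12a (0.0038), Serpina3n (0.00728), Myot (0.0112), Serpinf2 (0.0147), Gsta2 (0.0193), Gbe1 (0.0242), Elovl5 (0.0274), Gstm1 (0.0288), Hp (0.0334) and Fads2 (0.0339). Of all tested genes 2.35% differed. For each of these genes except Gclc the 3 oil values against chow had the same sign. The CSO value did not pass for Elovl5 (adjusted p = 0.117) or Hp (adjusted p = 0.237). It also did not pass for Fgb, Cyp4a12a, Myot, Serpinf2 or Gsta2 (adjusted p = 0.99964 each). The SFO value did not pass for Gbe1 (adjusted p = 0.977), nor the OO value for Gclc (adjusted p = 0.806). For Gclc the OO value was 0.10 while the pooled value was -0.63, for Fgb and Serpinf2 the CSO values were 0.079 and 0.055, and for Gbe1 the SFO value was 0.13.

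A single library stood apart from its diet in 13 of 172 groups of 5 or 6 libraries. Chance flags about 1 in 20 if values are normally distributed, which does not hold for groups mostly at 0 CPM. In chow, Slc22a7 was at 2.25 CPM in chow 6 (the others at 23.6 to 50.1 CPM) and Sqle at 54.2 CPM in the same library (82.5 to 95.0). Srebf1 was at 93.7 CPM in chow 1 (152.8 to 193), Serpina3n at 166 CPM in chow 4 (226 to 258) and Hp at 2406 CPM in chow 3 (1982 to 2099). Among oil libraries, Fads2 was at 2229 CPM in OO 2 (1388 to 1518), Lect2 at 49.8 CPM in CSO 2 (87.3 to 117) and Ugdh at 112 CPM in CSO 3 (155 to 175). The other 5 are muscle genes: Casq1 at 5.56 CPM in CSO 1, 1.18 CPM in OO 2 and 0.0911 CPM in SFO 3, and Myot at 18.5 CPM in CSO 1 and 0.190 CPM in SFO 6. For both genes the other SFO libraries were at 0 CPM, where any count in 1 library gives a flag.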

How the results depend on the processing

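No named gene changed direction in a setting that gave it a value. The named genes were picked in a fit of these same libraries, so a kept direction is not independent support. Myot and Casq1 had a value in 10 and 9 of the 15 settings other than leaving out 1 library or adding a fold threshold. Neither had a value without the muscle-rich libraries. Leaving out each library in turn, edgeR called 69 (without chow 4) to 170 genes (without SFO 6), of which 33 to 65 rose and 36 to 109 fell, the oils differed in 163 (without CSO 1) to 437 genes (without OO 5), and 20 to 27 genes did not overlap. Without chow 3 there were 86 calls (48 lower); the oils differed in 183, 182 and 186 genes without CSO 4, CSO 6 and SFO 5. Of the 43 named genes 36 stayed called in each such fit, where Myot and Casq1 had a value in 18 and 12 of the 23; the other 7 were Acsl3, Cyp2f2, Gbe1, P4hb, Pcx, Prodh2 and Serpinf2. DESeq2's Wald test called 182 genes (99 higher), and in its likelihood-ratio test 583 differed between oils. The calls by limma voom were 235 (88 higher, 147 lower). With no filter there were 379 (84 higher, 295 lower), over more genes tested. Requiring a log2 change of 1 or more left 77 (15 higher) and 164 between oils. Library totals gave 182 between oils, against 281.

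With the replicate number as a block there were 84 calls (44 lower). No pairing by number was detected: same-numbered libraries of different diets correlated at -0.203 to 0.206, and 4 of 23 correlated best with their own number. Low correlations cannot show that the numbers carry no shared factor. The 17 oil libraries as 1 group gave 49 calls (29 higher, 20 lower). Genes without overlap were 38, 38 and 36 without CSO, OO and SFO; 37 fell without SFO. Without the 4 muscle-rich libraries there were 29 calls (12 higher, 17 lower), 104 between oils and 60 genes without overlap, with fewer samples; leaving out OO 3 as well, chosen after seeing the data, gave 37 (17 higher, 20 lower), 101 and 75. Muscle transcripts as a covariate gave 52 (23 higher, 29 lower), and a clock score 165 between oils. For changes in counts not explained by fewer samples or more genes tested, the cause was not tested. Depth limits low genes such as Cyp3a44, Gsta2 and Cyp2b10. The part of the lower gene detection in OO in their values was not tested.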

Other observations

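Prtn3, a serine protease of neutrophil granules, had 0 counts in all 6 chow libraries and 336 counts over 13 of the 17 oil libraries; it was singled out after its values were seen. Against a floor of 3 counts over the chow group it was at least 48.4-fold higher in the mean of the oil diets, and edgeR gave an adjusted p of 0.0405. The SFO libraries held 242 of the 336 counts. The 3 measured neutrophil markers summed to 0.320 to 7.76 CPM in chow and 0 to 21.6 CPM in the oil libraries.

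Genes outside the lists that rose include Dio1, the deiodinase that activates thyroid hormone (0.64 ± 0.17, adjusted p = 0.0405 by edgeR), Slc39a14, a zinc and iron carrier (0.62 ± 0.16, adjusted p = 0.031), and Fn1, plasma fibronectin (0.67 ± 0.099, adjusted p = 2.04e-05). For Fn1 the oils differed in degree (0.45 in CSO, 0.91 in OO and 0.66 in SFO, adjusted p = 0.0429). Genes outside the lists that fell include the prostaglandin carrier Slco2a1 (-1.23 ± 0.22, adjusted p = 0.000641) and Etnppl, a phospho-lyase of phosphoethanolamine (-1.35 ± 0.27, adjusted p = 0.00759). These were chosen after their values were seen. Acot1, an acyl-CoA thioesterase (-1.56 ± 0.37, adjusted p = 0.0221), and Retsat, retinol saturase (-0.56 ± 0.12, adjusted p = 0.00428), fell in the mean with CSO at 0.027 and 0.063.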
